A study of Mus musculus with 6 samples.

Results

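The genes described are 36 genes of glycolysis and of the cellular response to low oxygen, of which 33 were measured among 18194 genes on Affymetrix mouse M430 2.0 arrays. They cover glucose and lactate transporters, the enzymes from hexokinase to lactate dehydrogenase, the hypoxia-inducible factors with their oxygen sensors, and a set of genes known to be induced in hypoxia. Each was represented by its brightest probe set annotated to 1 gene, with probe sets ending in _x_at (which can cross-hybridize) used only where no other exists, as for Aldoa. Gpi1, Eno1 and Bnip3l had no such probe set and were not analysed here. All cells were immortalized mouse embryonic fibroblasts (MEFs) of mixed strain background that lack Kdm5a. One group carried an empty vector, another had wild-type KDM5A put back, and the last had KDM5A-H483A, in which an iron-binding histidine of the catalytic domain is changed to alanine (called the controls, the wild-type form and the H483A form). Each group was measured on 2 arrays, 6 in all, from RNA of subconfluent cultures in serum-containing medium, and the labels name no change of oxygen. The controls and the other groups therefore share the deletion and the immortalization. The sources used here give neither the delivery of the vectors nor whether a group is 1 clone or a pool. Replicates are labelled as biological, but what separated their cultures is not described, so p-values measure only the spread between these arrays.

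Glycolysis converts glucose to pyruvate in the cytosol, and proliferating fibroblasts turn much of that pyruvate into lactate. The transcription factors HIF-1 alpha (gene Hif1a) and HIF-2 alpha (gene Epas1) raise many glycolytic genes when oxygen falls. In normal oxygen the prolyl hydroxylases of the Egln genes mark both factors for destruction. Those hydroxylases and KDM5A, which removes methyl groups from lysine 4 of histone H3, belong to the same class of enzymes that need iron, oxygen and 2-oxoglutarate. HIF proteins bind DNA at hypoxia response elements whose core letters are ACGTG or GCGTG.

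The promoters of 4 members are shown because these genes differ in which array of a KDM5A group was the brighter. Ldha and Pgk1 were brighter in the second array of both KDM5A groups, Bnip3 and Ddit4 in the first. For Pgk1 with the wild-type form the difference (first minus second) was only -0.028. Each is the 250 bases before the first start listed by RefSeq (GRCm38.p6), written 5′ to 3′ along the gene, with capitals marking ACGTG or GCGTG read on either strand. The windows lie at chr7:46845554-46845803, plus strand (Ldha), chrX:106186850-106187099, plus strand (Pgk1), chr7:138909507-138909756, minus strand (Bnip3) and chr10:59951771-59952020, minus strand (Ddit4).
Ldha: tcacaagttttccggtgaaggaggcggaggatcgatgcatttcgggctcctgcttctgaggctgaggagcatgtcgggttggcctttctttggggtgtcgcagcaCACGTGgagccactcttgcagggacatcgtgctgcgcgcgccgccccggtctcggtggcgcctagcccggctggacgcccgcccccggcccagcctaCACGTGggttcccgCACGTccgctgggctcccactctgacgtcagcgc
Pgk1: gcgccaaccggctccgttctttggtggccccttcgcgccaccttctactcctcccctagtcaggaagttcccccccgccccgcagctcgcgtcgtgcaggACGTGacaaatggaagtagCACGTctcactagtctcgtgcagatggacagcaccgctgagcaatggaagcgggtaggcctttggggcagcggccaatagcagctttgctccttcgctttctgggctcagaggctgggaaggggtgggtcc
Bnip3: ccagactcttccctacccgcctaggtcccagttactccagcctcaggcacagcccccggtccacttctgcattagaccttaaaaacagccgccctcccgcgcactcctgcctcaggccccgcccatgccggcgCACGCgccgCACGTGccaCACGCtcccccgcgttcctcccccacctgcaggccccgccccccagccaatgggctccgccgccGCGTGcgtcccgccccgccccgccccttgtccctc
Ddit4: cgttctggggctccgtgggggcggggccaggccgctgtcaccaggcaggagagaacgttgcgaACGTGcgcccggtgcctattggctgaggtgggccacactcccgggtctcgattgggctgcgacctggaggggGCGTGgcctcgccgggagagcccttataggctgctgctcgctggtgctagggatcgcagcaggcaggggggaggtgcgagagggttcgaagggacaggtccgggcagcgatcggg

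The Ldha window held 3 stretches of ACGTG and the Pgk1 window 2, while the Bnip3 window held 1 of ACGTG and 3 of GCGTG, and the Ddit4 window 1 of each. Letters were searched on both strands, and overlapping matches of the 2 strands, as in CACGTG, were counted once. A promoter window was listed for 30 of the 33 measured members. ACGTG occurred in at least 1 window of 19 of these 30 (63.3%), against 22.5% of the 14453 measured genes with a window. GCGTG occurred for 20 of 30 (66.7%) against 42.5%. Over all 32851 windows of this length the shares were 16.6% for ACGTG and 28.2% for GCGTG. Many members are textbook HIF targets and were listed for that reason, so the shares are a description of the list. All 4 genes shown held such letters, and a match is not a measured binding site. Other windows did not follow the contrast of these 4. Pgam1, brighter in the second array of both KDM5A groups, held 1 of ACGTG and 2 of GCGTG. Hif1a and Eno2 were brighter in the first. Hif1a held 2 of ACGTG and 0 of GCGTG, and Eno2 held 0 of each. The other Ldha window held 0 of ACGTG and 1 of GCGTG. Whether the letters go with the brighter array was not tested.

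Fibroblast markers were well expressed. By their mean over the 6 arrays, all 10, among them Col1a1, Pdgfra and Vim, lay between the 82.4th and the 99.9th percentile of all probe sets, and the 5 endothelial markers between the 23.1st and the 40.6th. Epithelial markers reached the 67.9th percentile, macrophage and blood markers the 73.5th, muscle markers the 68.8th and neural markers the 76.4th. The brightest Kdm5a probe set stood at 5.89 and 5.83 (control), 5.96 and 5.83 (wild-type) and 6.11 and 5.89 (H483A). The sources used here do not place its probes relative to the deletion or to the KDM5A put back, so it checks neither. The 2 arrays of a group lay at least 1 log2 unit apart for 0.148% of genes with empty vector, 1.85% with wild-type KDM5A and 2.4% with KDM5A-H483A, so the arrays of both KDM5A groups differed more from each other than the controls did.

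Most members were well expressed. Of the 33, 30 had a mean level above the median of all probe sets and 15 were in the top 10%, including Gapdh, Pgk1, Ldha, Pkm and Hif1a. Pfkfb3, Epas1 and Ankrd37 were dimmer than that median, where background can make up much of the signal. The members spanned a median of 0.62 log2 units from the lowest to the highest of the 6 arrays, against 0.42 for all genes. Vegfa, the gene of the main angiogenic growth factor, had the smallest span at 0.25, and the neuronal enolase gene Eno2 the largest at 1.58.

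**Figure D1:**
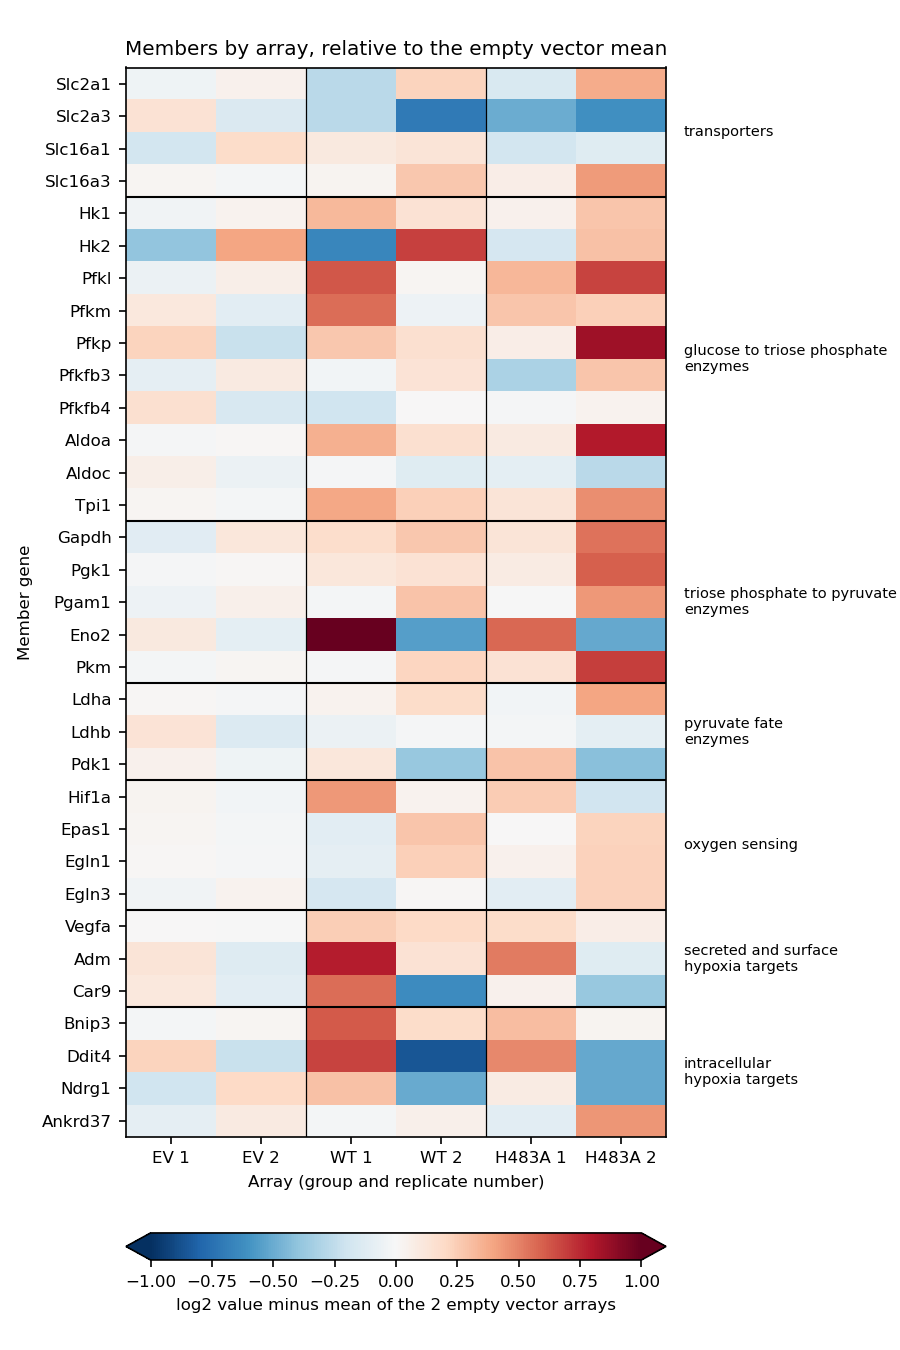
Levels of the 33 measured members (rows, grouped by role) in each of the 6 arrays (columns: EV, empty vector; WT, wild-type KDM5A; H483A, KDM5A-H483A), as the log2 value minus the mean of the 2 empty vector arrays, with colours ending at 1 in either direction. Slc2a3 was below that mean in all 4 KDM5A arrays, the second KDM5A-H483A array was above it for most glycolytic enzymes, and Ddit4 and Eno2 had opposite signs in the first and second KDM5A arrays.

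The first comparison asks which members differ when wild-type KDM5A is put back. Enzymes of the steps from glucose to pyruvate stood slightly higher than with empty vector and the glucose transporter gene Slc2a3 lower, but no difference passed the test. Of the 33 members, 0 had a limma adjusted p below 0.05 (0% of all genes did), and the smallest was 1. At an unadjusted p below 0.05 there was 1 member, Slc2a3, against 2.52% of all genes. On the lower side, where Slc2a3 lay, 1.01% of all genes were below that p, and 1.51% on the higher side. The median member had a log2 fold change of 0.11, with 23 of 33 above 0, where the median of all genes was 0.0049 and 51.3% lay above 0. Both wild-type KDM5A arrays stood above both empty vector arrays for 11 members (33.3%), against 16.5% of all genes, and below both for 1 member (3.03%), against 15.4%. The members' share was thus above that of all genes on the higher side and below it on the lower side. Most members were brighter than the median probe set, and these shares were not matched for level. With genes dimmer than that median left out, the median of all genes was 0.026 here and 0.016 for KDM5A-H483A against empty vector. All 5 measured enzymes from triose phosphate to pyruvate and 8 of 10 enzymes before them had values above 0, with medians of 0.13 and 0.22. Of the 3 enzymes of pyruvate fate, Ldha, Ldhb and Pdk1, 1 had, with a median of -0.034. Without the second wild-type array, 4 members were below an unadjusted p of 0.05, all higher (Bnip3, Pfkm, Pfkl and Adm), or 12.1% against 3.51% of all genes. Without the first there were 2, Slc2a3 and Car9, both lower, or 6.06% against 3.64% of all genes. Without the first control array there were 0, against 0.758% of all genes, with a smallest limma adjusted p of 0.967 over these fits.

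KDM5A-H483A was set against empty vector in the same way, which asks whether a form with an altered catalytic histidine gives such differences. This comparison shares its empty vector arrays with the first. Enzymes from glucose to pyruvate again stood slightly higher, led by the phosphofructokinase gene Pfkl, and Slc2a3 lower. Of the 33 members, 0 passed (0% of all genes did), with a smallest limma adjusted p of 0.999, and 1 had an unadjusted p below 0.05, again Slc2a3, against 1.65% of all genes (0.687% lower and 0.967% higher). The median member had a log2 fold change of 0.12, with 24 of 33 above 0, where the median of all genes was 0.00099 and 50.2% lay above 0. Both KDM5A-H483A arrays stood above both controls for 12 members (36.4%), against 13.6% of all genes, and below both for 2 (6.06%), Slc2a3 and Aldoc, against 14.6%. The enzymes from triose phosphate to pyruvate had a median of 0.34, those before them 0.21 and those of pyruvate fate -0.059.

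The second KDM5A-H483A array weighed heavily on that comparison. Without the first array of the group, 11 members had an unadjusted p below 0.05, 10 higher and 1 lower, or 33.3% against 11.4% of all genes, and the median was 0.23. Without the second array the count was 0, against 1.37% of all genes, and the median 0.063. None passed after adjustment in either case, with a smallest limma adjusted p of 0.27 without the first array and 1 without the second. The 10 higher members were Aldoa, Pkm, Pgk1, Pfkp, Gapdh, Tpi1, Ankrd37, Pfkl, Ldha and Slc16a3. Against the empty vector mean, the median of the 5 triose phosphate to pyruvate enzymes was 0.55 in the second H483A array and 0.13 in the first. With the wild-type form it was 0.11 in the first array and 0.21 in the second.

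KDM5A-H483A and wild-type KDM5A were compared directly to ask whether the replaced histidine changes the response. Pkm stood higher with KDM5A-H483A, and Adm, Slc16a1 and Bnip3 lower, and none of these differences passed. Of the 33 members, 0 were called (0% of all genes were), with a smallest limma adjusted p of 0.928, and 0 had an unadjusted p below 0.05, against 3.81% of all genes (1.87% higher and 1.95% lower). The median was 0.045, with 19 of 33 above 0, where the median of all genes was -0.0069 and 48.4% lay above 0. Both KDM5A-H483A arrays stood above both wild-type KDM5A arrays for 0 members, against 14.9% of all genes, and below both for 2 (6.06%), Slc16a1 and Vegfa, against 16.1%. Without the first KDM5A-H483A array 5 members had an unadjusted p below 0.05, all higher, against 12.8% of all genes, and without the second the count was 0, against 2.18%, and the median was -0.038.

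The precision of 2 arrays a group limits all of this. In this fit, which does not pair the arrays, the 95% confidence interval of a member reached a median of 0.46 log2 units to either side. This reach ran from 0.29 for Vegfa to 1.33 for Eno2, so differences of the size seen for most members could not be told from 0.

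**Figure D2:**
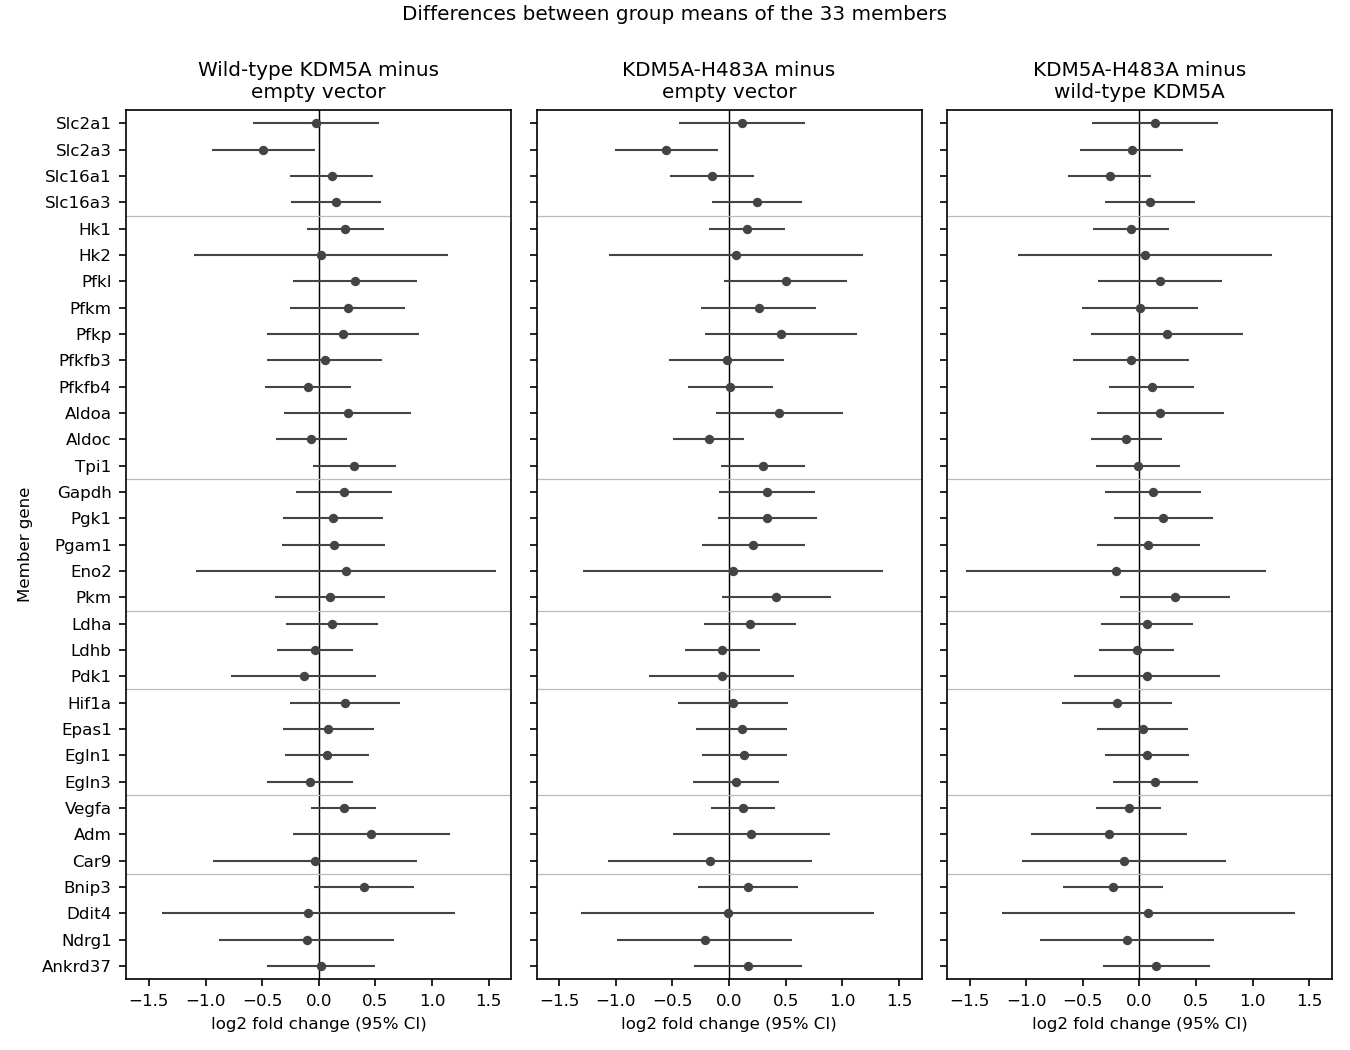
Log2 fold change of each measured member (points) with its 95% confidence interval from limma (bars) for wild-type KDM5A minus empty vector, KDM5A-H483A minus empty vector and KDM5A-H483A minus wild-type KDM5A; grey lines separate the roles in the order of the heat map. Only the intervals of Slc2a3 in the comparisons against empty vector exclude 0 before adjustment, and the widest belong to Eno2, Ddit4 and Hk2.

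Among the transporters, Slc2a3 and Slc2a1 did not run together. Slc2a3 encodes the high-affinity glucose transporter GLUT3. It stood at 6.85 and 6.55 in the controls, 6.43 and 5.99 with the wild-type form, and 6.20 and 6.09 with the H483A form. All 4 KDM5A arrays lay below both controls. The levels were 6.70 ± 0.21 in the controls, 6.21 ± 0.31 with the wild-type form and 6.15 ± 0.082 with the H483A form (SD, n = 2). This made it 1.4-fold lower with the wild-type form (log2 fold change -0.49, SE 0.19, limma adjusted p = 1, 95% CI -0.94 to -0.033). With KDM5A-H483A it was 1.47-fold lower (log2 fold change -0.56, SE 0.19, limma adjusted p = 0.999, 95% CI -1.01 to -0.10). The unadjusted p was 0.0392 and 0.024, the smallest of any member in either comparison, and neither difference passed.

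Its other probe sets did not all follow. The probe set ending in _x_at stood at 6.37 and 6.27 (control), 6.10 and 5.62 (wild-type) and 5.86 and 5.88 (H483A), again lower in all 4 KDM5A arrays. The other 2 stayed within 2.99 to 3.68, a range in which RMA compresses differences, and had log2 fold changes of 0.12 and 0.21 for the wild-type form and -0.061 and 0.062 for the H483A form.

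Slc2a1 encodes GLUT1, the basal glucose transporter of most cells and a HIF target. It stood at 8.11 and 8.19 in the controls, 7.88 and 8.37 with the wild-type form, and 8.00 and 8.53 with the H483A form, so that the second array of each KDM5A group was above both controls and the first below both. Its log2 fold change was -0.024 (95% CI -0.58 to 0.53) for the wild-type form and 0.11 (95% CI -0.45 to 0.67) for the H483A form. By its other 2 probe sets the difference was 0.18 and 0.10 for the wild-type form, and 0.36 and 0.27 for the H483A form. By both, the first array of each KDM5A group lay between the controls, and by the dimmer one the second wild-type array did too.

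Slc16a1 and Slc16a3 encode the monocarboxylate transporters MCT1 and MCT4, which carry lactate, MCT4 mainly outward. Slc16a1 stood at 7.56 and 7.92 in the controls, 7.84 and 7.87 with the wild-type form, and 7.56 and 7.62 with the H483A form. The H483A arrays lay below both wild-type arrays, and the log2 fold change between them was -0.26 (SE 0.15, limma adjusted p = 0.928, 95% CI -0.63 to 0.10), the smallest unadjusted p of that comparison among members at 0.131. Slc16a3 stood at 6.48 and 6.44 (control), 6.49 and 6.74 (wild-type) and 6.53 and 6.89 (H483A), with log2 fold changes of 0.15 and 0.25 against empty vector.

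Hexokinases trap glucose in the cell as glucose 6-phosphate. Hk1, the form of most tissues, stood at 8.48 and 8.54 in the controls, 8.83 and 8.66 with the wild-type form, and 8.55 and 8.79 with the H483A form, so that all 4 KDM5A arrays were above both controls and the group means were 0.23 and 0.16 higher on the log2 scale. Hk2, the inducible form and a HIF target, varied more within groups than between their means. It stood at 6.59 and 7.38 (control), 6.33 and 7.67 (wild-type) and 6.82 and 7.28 (H483A), higher in the second array of each group, and its log2 fold changes were 0.019 for the wild-type form (95% CI -1.10 to 1.14) and 0.064 for the H483A form (95% CI -1.06 to 1.19).

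Phosphofructokinase commits the sugar to glycolysis, and its liver, muscle and platelet subunits are encoded by Pfkl, Pfkm and Pfkp. Pfkl stood at 8.55 and 8.66 in the controls, 9.23 and 8.63 with the wild-type form, and 8.94 and 9.28 with the H483A form. Both H483A arrays were above the controls, but only the first wild-type array was. This gave a log2 fold change of 0.50 for the H483A form (1.41-fold; SE 0.23, limma adjusted p = 0.999, 95% CI -0.043 to 1.05) and 0.32 for the wild-type form (SE 0.23, limma adjusted p = 1, 95% CI -0.22 to 0.86). Its next brightest probe set gave 0.42 for the H483A form and 0.17 for the wild-type form, and the dimmest -0.18 and -0.032.

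Pfkp stood at 6.13 and 5.69 in the controls, 6.18 and 6.07 with the wild-type form, and 5.97 and 6.76 with the H483A form. Its value in the second H483A array was the highest of the 6 and lay 0.79 above the first, and the log2 fold change was 0.46 (95% CI -0.21 to 1.13) for the H483A form and 0.21 (95% CI -0.45 to 0.88) for the wild-type form. The remaining Pfkp probe sets were dim, from 3.56 to 3.99. Pfkm stood at 7.51 and 7.30 (control), 7.96 and 7.35 (wild-type) and 7.68 and 7.64 (H483A), with log2 fold changes of 0.25 and 0.26.

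Pfkfb3 and Pfkfb4 encode bifunctional enzymes that set the level of fructose 2,6-bisphosphate, the activator of phosphofructokinase. Pfkfb3 stood at 4.48 and 4.65 (control), 4.54 and 4.70 (wild-type) and 4.25 and 4.84 (H483A) and Pfkfb4 at 5.42 and 5.10 (control), 5.06 and 5.27 (wild-type) and 5.25 and 5.29 (H483A). Their values overlapped between groups and their log2 fold changes lay between -0.097 and 0.052 against the controls.

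Aldolase splits the sugar and triose phosphate isomerase interconverts the products. Aldoa, the aldolase of muscle and most cells, stood at 9.33 and 9.36 in the controls, 9.70 and 9.50 with the wild-type form, and 9.44 and 10.14 with the H483A form. All 4 KDM5A arrays were above the controls. The log2 fold change was 0.44 for the H483A form (SE 0.23, limma adjusted p = 0.999, 95% CI -0.12 to 1.00) and 0.26 for the wild-type form (SE 0.23, limma adjusted p = 1, 95% CI -0.30 to 0.82). All 5 Aldoa probe sets end in _x_at, and their log2 fold changes lay between 0.28 and 0.44 for the H483A form and between 0.12 and 0.35 for the wild-type form.

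Tpi1 encodes triose phosphate isomerase. It stood at 9.72 and 9.68 in the controls, 10.09 and 9.94 with the wild-type form, and 9.83 and 10.16 with the H483A form, and all 4 KDM5A arrays were above the controls. Its log2 fold change was 0.31 for the wild-type form (SE 0.15, limma adjusted p = 1, 95% CI -0.054 to 0.68) and 0.30 for the H483A form (SE 0.15, limma adjusted p = 0.999, 95% CI -0.069 to 0.67). Its other 2 probe sets both had log2 fold changes of 0.24 for the wild-type form and 0.26 for the H483A form. Aldoc, the brain aldolase, was dim at 4.78 and 4.66 (control), 4.70 and 4.60 (wild-type) and 4.62 and 4.45 (H483A).

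**Figure D3:**
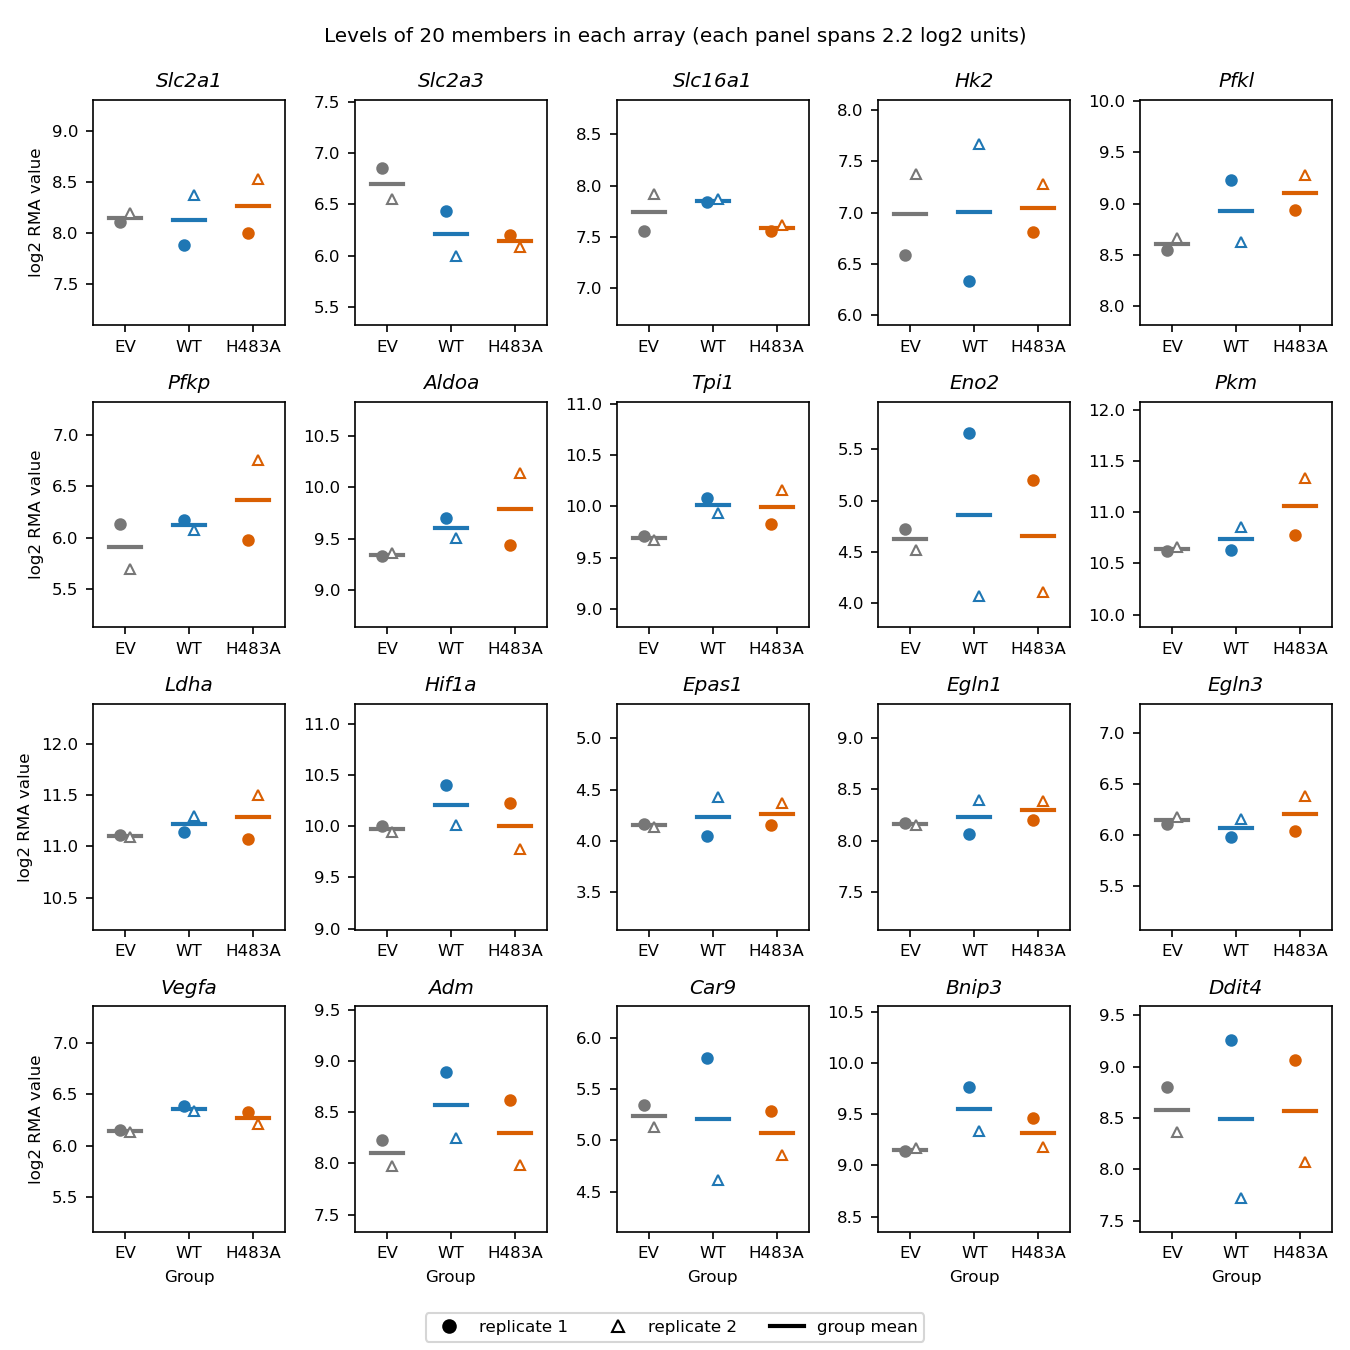
Log2 RMA values of 20 members in each array (circles, replicate 1; triangles, replicate 2; bars, group means) for empty vector (EV), wild-type KDM5A (WT) and KDM5A-H483A, with the same log2 span in every panel. Slc2a3 was lower and Aldoa and Tpi1 higher in all 4 KDM5A arrays than in both controls, while Hk2, Eno2, Car9 and Ddit4 had at least 1 log2 unit between the wild-type KDM5A arrays.

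The enzymes from triose phosphate to pyruvate yield ATP and NADH. Gapdh, the dehydrogenase of this stage, stood at 11.87 and 12.10 in the controls, 12.15 and 12.25 with the wild-type form, and 12.11 and 12.53 with the H483A form. It was read by a control probe set at the 3′ end of the transcript, with companions for the middle and the 5′ end. The 5′ probe set stood at 10.01 and 10.36 (control), 10.85 and 10.43 (wild-type) and 10.40 and 10.87 (H483A), and the middle one at 10.73 and 10.96 (control), 11.25 and 11.12 (wild-type) and 11.07 and 11.50 (H483A). With the usual labelling of this array, the 5′ value minus the 3′ value reads how intact the RNA was. The kit named for these samples is not the usual one, so that reading is uncertain here. The difference lay at -1.31 in the first wild-type array and between -1.86 and -1.66 in the other 5. That array stood apart in this respect, and the part of RNA integrity in the differences it carries was not tested. Gapdh was higher by 0.22 with the wild-type form (95% CI -0.20 to 0.64) and by 0.34 with the H483A form (95% CI -0.088 to 0.76).

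Pgk1 encodes phosphoglycerate kinase, which makes the first ATP of the pathway. It stood at 10.96 and 10.98 in the controls, 11.08 and 11.11 with the wild-type form, and 11.05 and 11.56 with the H483A form, with all 4 KDM5A arrays above both controls and the second H483A array highest. Its log2 fold changes were 0.13 for the wild-type form (95% CI -0.31 to 0.57) and 0.34 for the H483A form (95% CI -0.10 to 0.78). The other Pgk1 probe sets, both ending in _x_at, gave 0.066 and 0.12 for the wild-type form, and 0.22 and 0.21 for the H483A form. By both, the first H483A array lay between the controls, and by the dimmer one the first wild-type array did too. Pgam1, a phosphoglycerate mutase gene, stood at 10.22 and 10.31 (control), 10.25 and 10.55 (wild-type) and 10.26 and 10.70 (H483A), with log2 fold changes of 0.13 and 0.21.

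Pkm encodes pyruvate kinase, the last step. It stood at 10.62 and 10.66 in the controls, 10.63 and 10.85 with the wild-type form, and 10.78 and 11.33 with the H483A form. Both H483A arrays were above both controls. This gave a log2 fold change of 0.42 for the H483A form (1.34-fold; SE 0.20, limma adjusted p = 0.999, 95% CI -0.066 to 0.90), 0.10 for the wild-type form (SE 0.20, limma adjusted p = 1, 95% CI -0.38 to 0.59) and 0.32 between the 2 forms (SE 0.20, limma adjusted p = 0.928, 95% CI -0.17 to 0.80). The arrays of the 2 forms overlapped, and Pkm had 1 probe set.

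Eno2, the neuronal enolase and a HIF target, behaved differently from the rest of this stage. It stood at 4.72 and 4.52 in the controls, 5.66 and 4.08 with the wild-type form, and 5.20 and 4.11 with the H483A form. The first array of each KDM5A group was above both controls and the second below both, with 1.58 and 1.09 log2 units between them. The group means gave log2 fold changes of 0.24 for the wild-type form (95% CI -1.08 to 1.57) and 0.034 for the H483A form (95% CI -1.29 to 1.36).

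Pyruvate is reduced to lactate by lactate dehydrogenase or enters the mitochondria unless pyruvate dehydrogenase kinase blocks it. Ldha, the lactate dehydrogenase subunit that HIF induces, stood at 11.12 and 11.10 in the controls, 11.15 and 11.29 with the wild-type form, and 11.08 and 11.50 with the H483A form. The second H483A array was highest and the first was below both controls. The log2 fold change was 0.11 (95% CI -0.29 to 0.52) for the wild-type form and 0.18 (95% CI -0.22 to 0.59) for the H483A form. Ldhb, the heart subunit, stood at 8.19 and 7.92 (control), 8.00 and 8.04 (wild-type) and 8.03 and 7.96 (H483A) and Pdk1, the HIF-induced kinase, at 6.52 and 6.43 (control), 6.58 and 6.09 (wild-type) and 6.76 and 6.05 (H483A). By the probe sets used, the log2 fold changes of Ldhb and Pdk1 against the controls lay between -0.13 and -0.034. Other probe sets did not keep this sign. Those of Pdk1 gave 0.0015, 0.25 and 0.11 for the wild-type form, and -0.11, 0.13 and 0.016 for the H483A form. Those of Ldhb ran from -0.097 to 0.086.

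By the probe sets used, the 4 genes of oxygen sensing had log2 fold changes between -0.078 and 0.23 against the controls. Hif1a stood at 10.00 and 9.94 in the controls, 10.40 and 10.01 with the wild-type form, and 10.22 and 9.78 with the H483A form. Both wild-type arrays were above both controls, the second only just, and the H483A arrays lay on either side of them. Its log2 fold change was 0.23 for the wild-type form (95% CI -0.25 to 0.72) and 0.033 for the H483A form (95% CI -0.45 to 0.52). The HIF-1 alpha protein is regulated mainly by its breakdown, which RNA levels do not show. By its other probe sets the difference was 0.16, 0.43 and -0.30 for the wild-type form, and -0.016, 0.094 and -0.13 for the H483A form. Epas1 was dim, at 4.17 and 4.13 (control), 4.04 and 4.43 (wild-type) and 4.15 and 4.37 (H483A), with log2 fold changes of 0.084 and 0.11.

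Egln1 encodes PHD2, the main prolyl hydroxylase in normal oxygen. It stood at 8.17 and 8.15 in the controls, 8.07 and 8.40 with the wild-type form, and 8.21 and 8.39 with the H483A form, with log2 fold changes of 0.072 for the wild-type form (95% CI -0.30 to 0.44) and 0.14 for the H483A form (95% CI -0.24 to 0.51). Egln3 encodes PHD3, a hydroxylase that HIF itself induces. It stood at 6.11 and 6.18 in the controls, 5.98 and 6.15 with the wild-type form, and 6.04 and 6.38 with the H483A form, with log2 fold changes of -0.078 for the wild-type form (95% CI -0.46 to 0.30) and 0.062 for the H483A form (95% CI -0.32 to 0.44). By these probe sets the first wild-type array was the lowest of the 6 for Egln1 and for Egln3, and one of the second KDM5A arrays the highest. The other probe set of each gene did not follow this order. For Egln1 it stood at 6.14 and 5.80 (control), 5.91 and 6.15 (wild-type) and 6.38 and 6.28 (H483A). For Egln3 it stood at 5.18 and 5.53 (control), 5.49 and 5.43 (wild-type) and 5.42 and 5.43 (H483A). Their log2 fold changes were 0.063 and 0.10 for the wild-type form, and 0.36 and 0.070 for the H483A form.

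Secreted and surface products of the hypoxia response include VEGF-A, adrenomedullin and carbonic anhydrase IX. Vegfa stood at 6.15 and 6.14 in the controls, 6.39 and 6.34 with the wild-type form, and 6.33 and 6.21 with the H483A form. All 4 KDM5A arrays were above both controls and the arrays of the 2 forms did not overlap. This gave a log2 fold change of 0.22 (SE 0.12, limma adjusted p = 1, 95% CI -0.065 to 0.51) for the wild-type form, 0.12 (SE 0.12, limma adjusted p = 0.999, 95% CI -0.16 to 0.41) for the H483A form and -0.097 (95% CI -0.38 to 0.19) between the forms. Another Vegfa probe set had the opposite sign, with log2 fold changes of -0.22 and -0.10 against empty vector.

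Adm, the gene of the vasodilator adrenomedullin, stood at 8.23 and 7.98 in the controls, 8.89 and 8.25 with the wild-type form, and 8.62 and 7.98 with the H483A form. Both wild-type arrays were above both controls, by a wide margin in the first alone. The log2 fold change was 0.47 for the wild-type form (1.38-fold; SE 0.29, limma adjusted p = 1, 95% CI -0.22 to 1.15) and 0.20 for the H483A form (SE 0.29, limma adjusted p = 0.999, 95% CI -0.49 to 0.89). Between the forms it was -0.27 (95% CI -0.96 to 0.42), and the other probe set, which ends in _x_at, gave 0.066. That probe set was the brighter and gave 0.24 for the wild-type form and 0.31 for the H483A form against empty vector. By it the second wild-type array lay between the controls. Car9, which encodes a surface enzyme that acidifies the surroundings of hypoxic cells, stood at 5.35 and 5.14 (control), 5.80 and 4.62 (wild-type) and 5.29 and 4.86 (H483A). Its wild-type arrays were the highest and the lowest of the 6, and its log2 fold changes were -0.033 for the wild-type form (95% CI -0.93 to 0.87) and -0.17 for the H483A form (95% CI -1.07 to 0.73).

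Inside the cell, HIF targets act on mitochondria and growth control. Bnip3, a mitophagy receptor gene, stood at 9.14 and 9.17 in the controls, 9.77 and 9.34 with the wild-type form, and 9.46 and 9.18 with the H483A form. All 4 KDM5A arrays were above both controls, the second H483A array only just. Its log2 fold change was 0.40 for the wild-type form (1.32-fold; SE 0.18, limma adjusted p = 1, 95% CI -0.042 to 0.84), 0.17 for the H483A form (SE 0.18, limma adjusted p = 0.999, 95% CI -0.27 to 0.61) and -0.23 between the forms (95% CI -0.67 to 0.21). Without the first wild-type array the value for that form was 0.19, and without the second it was 0.62.

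Ddit4 encodes REDD1, a stress-induced inhibitor of mTORC1. It stood at 8.80 and 8.36 in the controls, 9.26 and 7.72 with the wild-type form, and 9.06 and 8.07 with the H483A form. The first array of each KDM5A group was above both controls and the second below both, 1.53 and 0.99 log2 units apart. The group means were almost equal, with log2 fold changes of -0.092 for the wild-type form (95% CI -1.39 to 1.20) and -0.014 for the H483A form (95% CI -1.31 to 1.28). Ndrg1, a gene induced by stress and differentiation, stood at 7.04 and 7.45 (control), 7.54 and 6.74 (wild-type) and 7.32 and 6.73 (H483A), and Ankrd37, a small ankyrin-repeat gene, at 4.32 and 4.50 (control), 4.39 and 4.46 (wild-type) and 4.30 and 4.85 (H483A). Ndrg1 was again higher in the first array of both KDM5A groups, and Ankrd37 was highest in the second H483A array.

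Among the members, the distance between the arrays of a group differed by role. Of the 7 hypoxia targets, 6 had a brighter first than second array with the wild-type form and 6 with the H483A form, the exception being Ankrd37, with median differences of 0.64 and 0.43. In the controls 4 of 7 had, with a median of 0.015. Of the 22 transporters and enzymes, 16 were higher in the second H483A array than in the first, with a median difference of -0.35 (first minus second). For wild-type KDM5A this was 12 of 22, with a median of -0.032, and for the controls 11 of 22 and -0.00017. Over all genes the median differences were 0.0015 with the H483A form, 0.016 with the wild-type form and 0.0012 in the controls. The first array was the brighter for 50.2%, 52.5% and 50.3% of all genes, in that order. Of 29 other hypoxia-induced genes, described below, 18 were brighter in the first wild-type array and 16 in the first H483A array. Their median differences were 0.076 and 0.010. In the controls 12 of these 29 were brighter in the first array, with a median of -0.037. At least 1 log2 unit separated the 2 wild-type arrays for 4 members (12.1%), Hk2, Eno2, Car9 and Ddit4, against 1.85% of all genes. With KDM5A-H483A there was 1, Eno2 (3.03% against 2.4%), and in the controls 0 (0.148% of all genes). Replicates have no order, so these are distances within a group and were not tested.

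**Figure D4:**
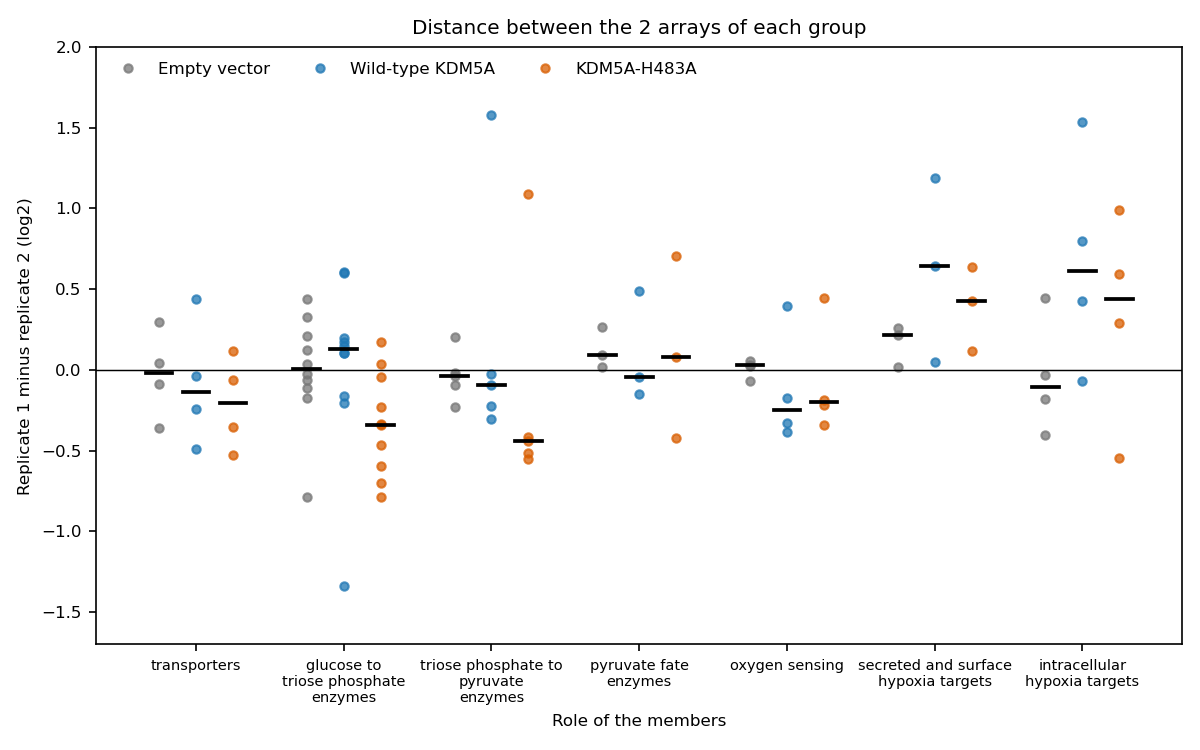
Replicate 1 minus replicate 2 on the log2 scale for each measured member (points), by role and group, with the median of each role as a black bar. The 3 secreted and surface hypoxia targets lay above 0 in every group, the intracellular ones mostly above 0 in both KDM5A groups, and the enzymes mostly below 0 with KDM5A-H483A.

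Several markers of cell types also differed between the arrays of a KDM5A group. The mean level of the 10 fibroblast markers was 10.70 and 10.47 in the first and second empty vector arrays, 10.99 and 10.06 with the wild-type form, and 10.85 and 10.08 with the H483A form. The collagen gene Col3a1 and the proteoglycan gene Dcn differed most, at 12.70 and 12.35 (control), 13.13 and 10.51 (wild-type) and 12.90 and 10.24 (H483A) and at 7.80 and 6.77 (control), 8.26 and 5.97 (wild-type) and 8.07 and 5.67 (H483A). All 10 markers were higher in the first wild-type array, but only 7 in the first H483A array, where Vim, S100a4 and Thy1 were lower. The keratin gene Krt19 went the other way in both groups, at 5.27 and 5.38 (control), 5.25 and 6.30 (wild-type) and 5.42 and 7.01 (H483A). So did the neural marker Sox2, at 6.01 and 6.15 (control), 5.75 and 6.71 (wild-type) and 5.76 and 6.45 (H483A). Their lists did not follow as a whole. Of the 5 epithelial markers, 2 were higher in the first array of each KDM5A group, Krt8 in both. The median differences (first minus second) were -0.045 with the wild-type form and -0.10 with the H483A form. Of the 4 neural markers, 1 was higher in the first wild-type array and 2 in the first H483A array, with medians of -0.24 and 0.066. Over all arrays the mean of the epithelial markers lay between 4.22 and 4.62, of the endothelial between 3.59 and 3.79, of the macrophage and blood between 4.46 and 4.66, of the muscle between 5.06 and 5.17 and of the neural between 5.12 and 5.38. The part of these markers in the members' differences was not tested. In bulk RNA, fewer cells of a kind and less RNA per cell cannot be told apart.

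Further genes of the same pathways were read from 5 lists of 84 genes, of which 78 were measured. Limma called 0 of them in each comparison. At an unadjusted p below 0.05 there was 1 higher (Ldhc) and 1 lower (Pdp2) of the 78 with the wild-type form. With the H483A form there were 2 higher (Eno3 and Ldhc) and 0 lower. Between the forms there was 1 higher (Eno3) and 1 lower (Kdm3a). Of all genes, 2.52%, 1.65% and 3.81% were below that p in these comparisons, in that order. The lists were other glycolytic isoforms and regulators (21 measured), pyruvate entry to mitochondria (11), the pentose phosphate pathway (6), other HIF system genes (11) and other hypoxia-induced genes (29). In that order, their median log2 fold changes were 0.019, 0.055, 0.051, 0.0017 and 0.12 for the wild-type form, and 0.097, 0.24, 0.30, -0.057 and 0.10 for the H483A form.

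Of the isoforms, the muscle enolase gene Eno3 stood at 6.02 and 6.31 (control), 6.08 and 6.49 (wild-type) and 6.66 and 7.26 (H483A). Both H483A arrays were above the other 4, and the log2 fold change was 0.79 against empty vector (unadjusted p = 0.016, limma adjusted p = 0.999). Ldhc, the lactate dehydrogenase of the testis, was dim, at 3.20 and 3.15 (control), 3.55 and 3.52 (wild-type) and 3.39 and 3.64 (H483A), with log2 fold changes of 0.36 and 0.34. Of the genes of pyruvate entry, the kinase gene Pdk4 stood at 5.78 and 6.55 (control), 6.54 and 7.40 (wild-type) and 6.36 and 7.03 (H483A) and had log2 fold changes of 0.80 and 0.53. Pdp2, which encodes a phosphatase that opposes such kinases, stood at 6.44 and 6.42 (control), 6.01 and 5.77 (wild-type) and 6.30 and 5.94 (H483A). All 4 KDM5A arrays were below both controls. The log2 fold change was -0.53 for the wild-type form (unadjusted p = 0.0168, limma adjusted p = 1). For the H483A form it was -0.31 (unadjusted p = 0.11, limma adjusted p = 0.999).

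In the pentose phosphate pathway, the transaldolase gene Taldo1 stood at 7.48 and 7.29 (control), 7.48 and 7.45 (wild-type) and 7.46 and 8.20 (H483A) and Pgd, a NADPH-producing dehydrogenase gene, at 7.25 and 7.36 (control), 7.44 and 7.76 (wild-type) and 7.32 and 8.10 (H483A). The second H483A array was the highest of the 6 for both. Of the HIF system, Hif1an, the gene of the asparaginyl hydroxylase FIH, stood at 4.88 and 4.92 (control), 4.97 and 4.72 (wild-type) and 4.74 and 5.72 (H483A), with that same array highest. The largest difference of the hypoxia-induced list against the controls was that of Hmox1, which encodes heme oxygenase and also responds to oxidative stress. It stood at 6.84 and 7.78 (control), 7.73 and 8.83 (wild-type) and 7.27 and 8.62 (H483A), higher in the second array of every group, with log2 fold changes of 0.97 and 0.63. Lox, a collagen cross-linking enzyme gene, stood at 12.66 and 12.71 (control), 12.90 and 12.12 (wild-type) and 12.66 and 11.64 (H483A), and its second array was the lower in both KDM5A groups.

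Other probe sets of the members gave a mixed picture of direction. For the 21 members with more than 1 probe set, 26 of the 41 further probe sets had the sign of the one used for the wild-type form against the controls, 29 for the H483A form against the controls, and 20 between the forms.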

How the data were processed

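The log2 values deposited for 45101 probe sets on 6 arrays came from RMA, according to the submitters' processing notes. This method corrects background, quantile-normalizes the arrays and summarises probes on the log2 scale, so it hides changes of total RNA per cell and compresses differences of dim genes. The sources used here give no software version. The labelling kit named in the labels' protocols is meant for whole transcripts and is not the usual one for this array. Array medians lay between 4.55 and 4.60, and no scaling was added.

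The platform annotation gave 1 gene symbol for 34958 probe sets, several for 932 and none for 9211. Symbols were updated through Entrez IDs (34754 matched), leaving 18194 genes, and 9012 had several probe sets. Limma (version 3.58.1, R 4.3.3) fitted 1 mean per group over all 6 arrays, with 3 residual and 3.42 prior degrees of freedom. P-values were two-sided and Benjamini-Hochberg adjusted over all 18194 genes, with a threshold of 0.05. The procedure was tested on simulated data with independent noise of the same spread for every gene. That test does not cover shifts shared by arrays or genes of unlike spread. Members and lists were chosen with earlier results of these data known, so no set test was made.

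Full values are given for the 5 members with the largest difference and the 3 with the smallest p in each comparison, those with arrays of a group at least 1 log2 unit apart, and Hif1a, Epas1, Egln1, Egln3, Vegfa, Ldha and Slc2a1. The other members are given more briefly. Of each further list, genes named were among the 2 with the largest differences in a comparison against empty vector, and Kdm3a and single cell type markers were named after their values were seen. Promoter windows are those of RefSeq. Alternatives covered a replicate block, only the groups compared, another variance prior, a filter on dim genes, 2 scalings, 2 other choices of probe set and leaving out each array.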

Additional observations from a re-analysis of the deposited data

How the results depend on the processing

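Limma called 0 members and 0 of all genes in every comparison under each alternative that kept 2 arrays a group. Under these alternatives the median of the members ran from 0.092 to 0.13 for wild-type KDM5A against empty vector. It ran from 0.11 to 0.17 for KDM5A-H483A and from 0.023 to 0.064 between the forms. With 1 array left out the ranges were 0.10 to 0.14, 0.063 to 0.23 and -0.038 to 0.14, so the sign between the forms was not stable. At an unadjusted p below 0.05 the replicate block gave 9.09% of members in both comparisons against empty vector. All genes gave 3.92% and 2.76%. With median-centred arrays the wild-type comparison gave 6.06% against 2.52% of all genes. With only the 2 groups compared, KDM5A-H483A against empty vector gave 6.06% against 1.57%. The mean of all probe sets gave 0% of members, against 2.63% and 2.00% of all genes. Between the forms, 2 arrays a group gave 0%, against 2.29% to 5.07% of all genes. The number of members at that p varied. For wild-type KDM5A against empty vector the count was 1, with 3 under the replicate block, 2 with median-centred arrays, 0 with the mean of all probe sets, and 0 to 4 when 1 array was left out (0 without the first empty vector array, 4 without the second wild-type KDM5A array). For KDM5A-H483A against empty vector it was 1, with 3 under the replicate block, 2 with only the 2 groups compared, 0 with the mean of all probe sets, and 0 to 11 when 1 array was left out (0 without the first empty vector array, 11 without the first KDM5A-H483A array). Between the forms it was 0, and 0 to 5 when 1 array was left out.

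Of 43 differences followed for named members, none was called under any alternative, and the sign turned in 6 cases besides arrays left out. With the mean of all probe sets, Slc2a1 (0.085) and Egln3 (0.013) for wild-type KDM5A and Hif1a (-0.0051) for KDM5A-H483A turned. With a further quantile normalization, Hk2 (-0.039) and Egln1 (-0.010) for wild-type KDM5A turned, and with _x_at probe sets allowed, Adm (0.066) between the forms. With 1 array left out, 21 of the 43 turned. For wild-type KDM5A the values ran from -0.27 to 0.22 for Slc2a1, -0.65 to 0.69 for Hk2, -0.0055 to 0.43 for Pfkp, -0.55 to 1.03 for Eno2, -0.0098 to 0.21 for Pkm, -0.11 to 0.28 for Epas1, -0.092 to 0.24 for Egln1, -0.16 to 0.0090 for Egln3, -0.63 to 0.56 for Car9 and -0.86 to 0.68 for Ddit4. For KDM5A-H483A they ran from -0.15 to 0.37 for Slc2a1, -0.33 to 0.46 for Hk2, -0.51 to 0.58 for Eno2, -0.029 to 0.40 for Ldha, -0.19 to 0.25 for Hif1a, -0.11 to 0.23 for Egln3, -0.12 to 0.52 for Adm, -0.38 to 0.045 for Car9 and -0.51 to 0.48 for Ddit4. Between the forms they ran from -0.15 to 0.64 for Pfkp and -0.59 to 0.055 for Adm. Slc2a3 stayed below 0 against empty vector in each alternative, between -0.71 and -0.16 for wild-type KDM5A and between -0.70 and -0.25 for KDM5A-H483A. The lone array left in a group was assumed to vary like the others.

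Groups share replicate numbers, and the labels do not say that a number marks a shared culture or day. The differences between arrays 1 and 2 correlated across genes, which are not independent replicates, at 0.31 for empty vector and wild-type KDM5A. They correlated at 0.016 for empty vector and KDM5A-H483A, and at 0.53 for the KDM5A groups. The numbers were not taken as pairs because the labels state no pairing. Where equal numbers shifted together, the unpaired fit has wider intervals. Its SE was 0.54 for Ddit4, 0.47 for Hk2 and 0.29 for Adm, against 0.25, 0.21 and 0.15 under the replicate block. For Tpi1 it was 0.15, against 0.16 under the block. With the replicate block 0 members passed and 713, 502 and 922 of all genes had an unadjusted p below 0.05 (smallest adjusted p of a member 0.998, 0.996 and 0.795 in the order of comparisons). Only 2 arrays a group limit all values, and RMA values give no detection limit for the dim members.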
